A study of Mus musculus with 6 samples.

Results

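The HOX genes are clustered homeobox genes that mark position along the body axis and the limb, and they were described here in cells of mouse bone marrow by cluster (a to d) and by paralogue number, the rank of a gene within its cluster. Members were the genes with a HOX cluster symbol and at least 1 array probe set whose annotation names that gene alone, each represented by its probe set of highest mean. This gave 33 genes of the 18193 measured, out of 38 HOX genes listed. Hoxb8 and Hoxd4 are named only in probe sets that also name a neighbouring HOX gene, and Hoxa6, Hoxc11 and Hoxc12 had no probe set named here.

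The 6 Affymetrix MOE430_2 arrays hold cells taken fresh from the marrow of adult, untreated, wild-type C57BL/6 mice. The sort left out cells that carry CD45 (leukocytes), TER119 (erythroid cells) or CD31 (endothelial cells). Among the remaining cells, 3 arrays hold Ebf2-positive and 3 hold Ebf2-negative cells, Ebf2 being an early B-cell factor transcription factor of mesenchymal cells. RNA came from 1000 or 2000 cells a sample and was amplified in a dual round. The sources used here do not give the cell number of each array, the way Ebf2 was detected or the number of animals. Nor do they say that arrays of a group came from separate animals, so a p-value reflects the spread among these samples alone, and that spread may be technical.

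HOX proteins bind DNA through a homeodomain, usually together with the related PBX, MEIS and PKNOX proteins. In the embryo, genes of low paralogue number act towards the head and genes of high number towards the tail and the tips of the limbs, and Polycomb proteins keep the clusters silent where they are not used. Adult mesenchymal cells keep part of the HOX pattern of the place they came from, and blood progenitors use some of the same genes, foremost of the a cluster.

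Signal is given on the log2 scale of the deposited values, and a difference is the Ebf2-positive minus the Ebf2-negative mean. A gene was called where the limma p-value, adjusted over all 18193 genes, was under 0.05. No detection call was used, so a dim gene may be at background, and the median of all genes' means, 5.13, serves as a landmark.

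Of the 33 HOX genes, 6 were higher in Ebf2-positive cells and 0 were lower. The 6 were Hoxa3, Hoxa5, Hoxa10 and Hoxa11 of the a cluster and Hoxc8 and Hoxc10 of the c cluster. The share called higher, 18.2%, stands beside 10.8% of all genes tested, and the 0 lower beside 13.6% of all genes. At an unadjusted p under 0.05 there were 9 HOX genes with a positive difference (27.3%, against 16.2% of all genes) and 0 with a negative one (against 19.7%). The median difference was 0.41 over the HOX genes and 0.07 over all genes. On the positive side were 28 HOX genes (84.8%), against 55.2% of all genes, and 5 were on the negative. Of the 14 HOX genes with a group mean above the all-gene median, 100% were positive, against 42.2% of all such genes. Of the 19 others 14 were positive (73.7%), at signals where positive differences were commoner among all genes too. For 11 HOX genes (33.3%) every Ebf2-positive array lay above every Ebf2-negative array, against 21.8% of all genes. The reverse held for no HOX gene and for 21.2% of all genes.

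These directions hold against the rest of each array. The poly-A control probe sets, for control transcripts that the array maker's protocol provides, were 2.48 higher in Ebf2-positive cells, and the sources used here do not say what was added to these samples. Centring each array on them lowered every difference by 2.48, moved the median over all genes to -2.41 and left 0 HOX genes higher and 24 lower, with only Hoxc8 still on the positive side (0.66; adjusted p = 0.4). The count also moved with single arrays. Leaving out replicate 2 or 3 of the Ebf2-positive group gave 2 and 4 genes higher, and leaving out replicate 1, 2 or 3 of the Ebf2-negative group gave 1, 2 and 2. Without Ebf2-positive replicate 2 the share of HOX genes higher was 6.06%, against 10.3% of all genes in the same fit. Without Ebf2-negative replicate 1, 2 or 3 it was 3.03%, 6.06% and 6.06%, against 7.61%, 9.0% and 7.11% of all genes, so that in each of these 4 fits the HOX share lay below that of all genes. The call of Hoxa10 was the only HOX call kept without each of the 6 arrays in turn.

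The groups differed in more than Ebf2. All 10 fibroblast and 6 pericyte marker genes were higher in Ebf2-positive cells, while 8 of 9 erythroid and 4 of 4 basophil and mast cell markers were lower. Log2 summed levels of the fibroblast list ran from 15.6 to 15.9 in Ebf2-positive and from 11.4 to 12.7 in Ebf2-negative arrays. For the erythroid list they ran from 8.13 to 9.40 and from 12.7 to 13.2, and for the 9 blood progenitor genes from 12.0 to 12.5 in either group. Those like sums hold opposite changes, since 2 of the 9 were higher (Cd34 by 5.98 and Mpo by 1.42) and 4 were lower (Kit at -3.92, Myb at -4.24, Gata2 at -2.48 and Lmo2 at -2.22). Ptprc, which encodes CD45, had signals of 6.68, 6.76 and 3.59 in Ebf2-positive cells and 8.78, 7.98 and 8.23 in Ebf2-negative ones, above the all-gene median on every array but Ebf2-positive replicate 3, in a gate that removes CD45. Pecam1, which encodes CD31, had means of 3.57 and 3.01. Of the 6 endothelial markers, Pecam1 among them, all had a positive difference and 1 was called higher, the receptor gene Tek, with means of 8.06 and 5.56 (adjusted p = 0.00565). Kdr had means of 7.13 and 6.13 and Cdh5 of 6.27 and 4.78, without a call. Log2 summed levels of that list ran from 8.59 to 9.99 in Ebf2-positive and from 6.73 to 8.48 in Ebf2-negative arrays. Ebf2-positive replicate 2 stood apart in cartilage markers, with a mean log2 signal of 5.96 against 9.11 and 9.30. Both arrays numbered 2 stood apart in the 6 marrow reticular markers, with mean log2 signals of 9.55 against 8.08 and 8.30 in Ebf2-positive and 9.69 against 8.33 and 8.53 in Ebf2-negative cells. The same arrays were the highest of their groups in the endothelial list (6.48 against 4.98 and 5.25, and 5.35 against 4.16 and 3.93). So they were, by mean log2 signal, in the blood progenitor list (7.63 against 6.88 and 6.65, and 7.43 against 7.18 and 7.16). By summed linear signal Ebf2-negative replicate 2 was instead the lowest of its group in that list (4113 against 5644 and 4599). Leaving out both arrays numbered 2 left 3 HOX genes higher, Hoxa10, Hoxc8 and Hoxc10. The part of these shifts in the HOX differences was not tested, and in such mixed samples fewer cells of a type and less RNA per cell cannot be told apart.

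**Figure D1:**
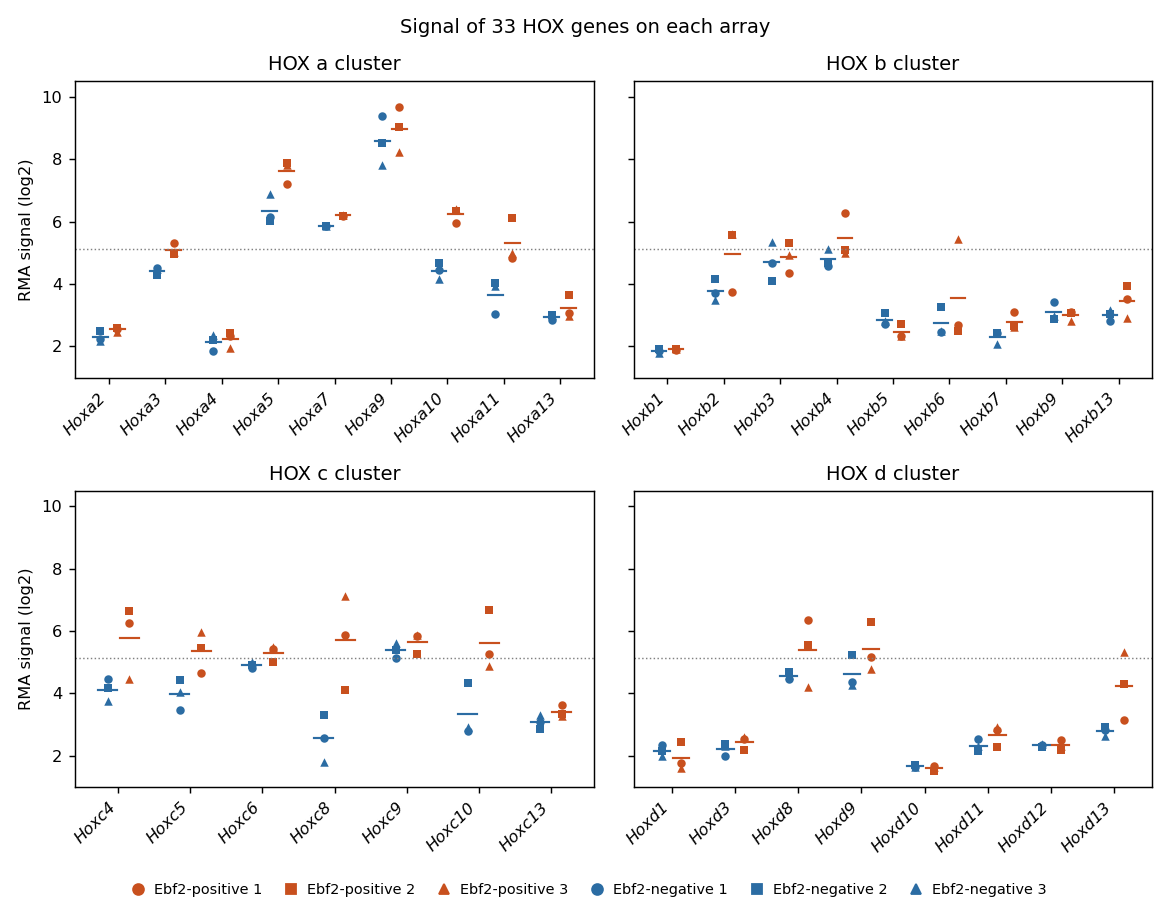
RMA signal (log2) of the 33 HOX genes on each of the 6 arrays, in 1 panel per cluster, with genes in paralogue order. Points are arrays (the symbol gives the replicate number), short lines are group means, and the dotted line is the median of all genes' means, 5.13. The groups of Hoxa10, Hoxa5, Hoxc8 and Hoxc10 do not overlap, whereas those of Hoxa9 do.

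The DNA just before the start of the called genes is printed here because 4 of the 6 sit in the a cluster on a short stretch of chromosome 6. The windows are the 250 bases before the transcript start in RefSeq on the mouse build GRCm38.p6, read along the gene's strand. Of the 33 measured genes 19 have such a window in the table used, and Hoxc8 and Hoxc10 are not among them. Capitals mark 1 match to the MEIS half-site TGACAG (in Hoxa3, on the opposite strand) and matches to TTTAT, a core that HOX and CDX proteins bind (in Hoxa10, which has a pair of listed starts).

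Hoxa3, chr6:52213068-52213317, minus strand: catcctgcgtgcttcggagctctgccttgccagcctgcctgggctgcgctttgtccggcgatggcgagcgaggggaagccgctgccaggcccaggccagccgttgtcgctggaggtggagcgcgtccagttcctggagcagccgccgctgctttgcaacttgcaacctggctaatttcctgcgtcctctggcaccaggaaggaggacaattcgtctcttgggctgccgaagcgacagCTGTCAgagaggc
Hoxa5, chr6:52204588-52204837, minus strand: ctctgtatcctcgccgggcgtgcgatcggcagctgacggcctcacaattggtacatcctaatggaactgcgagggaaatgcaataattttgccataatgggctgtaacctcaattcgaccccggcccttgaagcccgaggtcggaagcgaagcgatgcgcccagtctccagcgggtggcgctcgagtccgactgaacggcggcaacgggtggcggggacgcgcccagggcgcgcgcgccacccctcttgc
Hoxa10, chr6:52234940-52235189, minus strand: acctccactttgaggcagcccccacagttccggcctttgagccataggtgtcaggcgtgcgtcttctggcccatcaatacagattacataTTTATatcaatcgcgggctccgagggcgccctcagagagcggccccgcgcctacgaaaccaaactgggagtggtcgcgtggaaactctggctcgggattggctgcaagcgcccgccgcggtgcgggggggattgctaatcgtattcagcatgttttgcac
Hoxa10, chr6:52240855-52241104, minus strand: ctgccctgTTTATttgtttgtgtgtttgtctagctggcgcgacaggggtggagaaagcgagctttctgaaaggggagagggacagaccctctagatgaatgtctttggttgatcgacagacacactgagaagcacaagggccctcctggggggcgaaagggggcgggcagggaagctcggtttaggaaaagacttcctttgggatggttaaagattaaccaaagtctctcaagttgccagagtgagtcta
Hoxa11, chr6:52245811-52246060, minus strand: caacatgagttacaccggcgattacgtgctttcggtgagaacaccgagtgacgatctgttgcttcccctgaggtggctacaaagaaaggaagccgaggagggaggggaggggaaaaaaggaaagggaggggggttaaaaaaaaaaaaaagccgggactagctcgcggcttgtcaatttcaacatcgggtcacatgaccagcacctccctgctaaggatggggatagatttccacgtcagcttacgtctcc

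The listed Hoxa3 start lies between those of Hoxa6 and Hoxa7. By paralogue order a Hoxa3 transcript from there would run through the places of Hoxa6, Hoxa5 and Hoxa4, of which Hoxa5 was called. The windows hold 18 CG pairs in Hoxa3, 28 in Hoxa5 and 13 in Hoxa11. Those of Hoxa10 hold 20 and 7, at the lower and higher coordinate. The median was 6 over all 32851 windows, and the upper of the middle values was 13 over the 24 HOX windows. Both strands were searched. TTTAT was found in 9 of the 24 HOX windows and in 37.3% of all windows, and TGACAG in 2 HOX windows (Hoxa2 and Hoxa3) and in 15.9% of all. The palindrome TCCCNNGGGA, which EBF proteins bind, was found in 1 HOX window, that of Hoxa6, a gene not measured here, and in 0.779% of all windows. These are matches of letters, and no binding was measured.

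In the a cluster 4 of 9 measured genes were higher and 0 lower, all 9 differences were positive, and the median was 0.41. Poly-A centring turned all 9 negative. Hoxa3, a gene of the pharyngeal arches, thymus and parathyroid, had signals of 5.32, 4.95 and 5.04 in Ebf2-positive cells and 4.52, 4.30 and 4.47 in Ebf2-negative ones. The groups did not overlap, and the difference was 0.67 ± 0.19 (SE, n = 3 per group; adjusted p = 0.0494). This smallest of the 6 called differences lost its call without any 1 of the 6 arrays (adjusted p from 0.056 to 0.157). None of the 4 Hoxa3 probe sets was called over all probe sets. The sets not used gave 0.61, 0.08 and -0.02, with overlapping groups at 0.08 and -0.02. With the mean of its probe sets Hoxa3 was at 0.34 and not called (limma adjusted p = 0.168).

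Hoxa5, which patterns the neck and upper chest skeleton and the lung, had signals of 7.19, 7.87 and 7.81 against 6.14, 6.01 and 6.88. Every Ebf2-positive array was above the highest Ebf2-negative array, replicate 3. The difference was 1.28 ± 0.32 (SE; adjusted p = 0.0302), a 2.43-fold higher signal. A second probe set of Hoxa5 gave 6.34, 7.09 and 6.49 against 4.03, 4.80 and 4.90, a difference of 2.06, and was also called (adjusted p = 0.00963 over all probe sets). The call on the gene was lost without Ebf2-positive replicate 2 (adjusted p = 0.0745) or 3 (0.0765) and without Ebf2-negative replicate 1 (0.104) or 2 (0.0994).

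Hoxa10, a gene of the limb, the uterus and blood progenitors, had signals of 5.95, 6.33 and 6.42 in Ebf2-positive cells and 4.45, 4.68 and 4.16 in Ebf2-negative ones. The arrays of each group lay close together and the groups were more than 1 log2 unit apart. The difference was 1.80 ± 0.23 (SE; adjusted p = 0.00298), a 3.49-fold higher signal. Leaving out each array in turn gave differences from 1.67 to 1.95 and adjusted p-values of at most 0.0168. The other Hoxa10 probe set, which was dim, gave 3.12, 2.25 and 2.43 against 2.58, 2.24 and 2.04, with overlapping groups and a difference of 0.31 (adjusted p = 0.532). With that set in place of the one that reads several transcripts, the gene was not called (adjusted p = 0.507).

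Hoxa11, which with its d cluster paralogue patterns the middle segment of the limb, had signals of 4.83, 6.10 and 4.99 against 3.03, 4.02 and 3.94. The groups did not overlap, and Ebf2-positive replicate 2 was the highest. The difference was 1.64 ± 0.43 (SE; adjusted p = 0.0366). The call held without Ebf2-positive replicate 1 (adjusted p = 0.0437) and was lost without any 1 of the other arrays (0.0545 to 0.109).

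Hoxa7, a trunk gene, had tight and separate groups, with 6.18, 6.18 and 6.21 against 5.87, 5.85 and 5.85. The difference of 0.34 was not called (adjusted p = 0.198), with an SE of 0.165 after limma drew the gene's spread towards that of all genes. Hoxa9, a regulator of blood progenitors, had signals of 9.66, 9.03 and 8.24 against 9.39, 8.51 and 7.80, which overlapped over nearly their whole range. Its difference was 0.41, with a 95% interval from -0.82 to 1.64 (adjusted p = 0.61). The second Hoxa9 probe set gave 6.41, 5.84 and 5.42 against 4.60, 5.07 and 5.08, which did not overlap, with a difference of 0.97 (adjusted p = 0.0859 over all probe sets). The remaining a cluster genes, Hoxa2, Hoxa4 and Hoxa13, had group means from 2.14 to 3.23 and overlapping groups.

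In the c cluster 2 of 7 measured genes were higher and 0 lower, all 7 differences were positive, and the median was 1.39. Poly-A centring turned 6 of the 7 negative, Hoxc8 being the exception. Hoxc8, which patterns the lower chest vertebrae and forelimb motor neurons, had signals of 5.88, 4.10 and 7.13 against 2.59, 3.32 and 1.80. The groups did not overlap, but the Ebf2-positive arrays spread over 3 log2 units, and replicate 2, the array low in cartilage markers, was the lowest. The part of those markers was not tested. The difference, 3.13 ± 0.79 (SE; adjusted p = 0.0311), was the largest of the HOX genes, with a 95% interval from 1.23 to 5.04. It stayed called without Ebf2-positive replicate 2, at 3.94 (adjusted p = 0.00768), and was lost without any 1 of the other arrays (adjusted p from 0.0509 to 0.11). The call was also lost with a pseudocount of 16 (1.71; limma adjusted p = 0.101) and with the replicate number as a block (0.0673). The Ebf2-negative mean of Hoxc8, 2.57, may be at background, so the size of its log2 difference is uncertain.

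Hoxc10, a gene of the lumbar region and the hindlimb, had signals of 5.27, 6.66 and 4.87 against 2.79, 4.32 and 2.92. The array numbered 2 was the highest in each group, and the groups did not overlap. By mean log2 signal that array was also the highest of each group in the marrow reticular, endothelial and blood progenitor lists. Ebf2-negative replicate 2 was the highest of its group in the erythroid, fibroblast, pericyte, cartilage and bone lists too. It was the lowest in the basophil and mast cell list (6.98 against 8.64 and 8.64) and, by summed signal, in the blood progenitor list. The part of these lists in Hoxc10 was not tested. The difference was 2.26 ± 0.60 (SE; adjusted p = 0.0372), a 4.78-fold higher signal. It held without Ebf2-positive replicate 3 (adjusted p = 0.0363) or Ebf2-negative replicate 2 (0.0267), and was lost without any 1 of the other 4 arrays (0.0647 to 0.126). The call was also lost with a pseudocount of 16 (1.30; limma adjusted p = 0.0871) and with array weights (2.18; 0.0501).

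**Figure D2:**
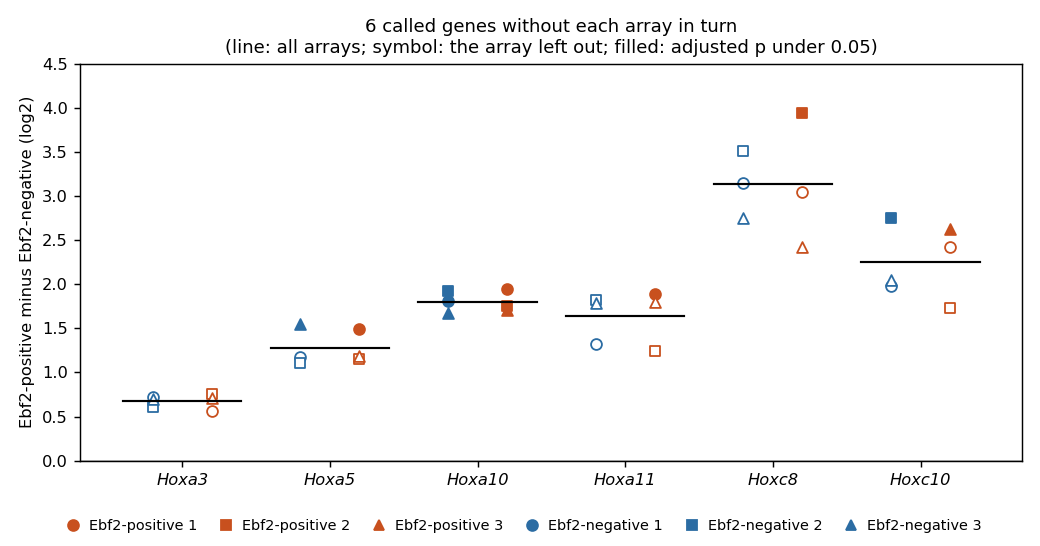
Difference (Ebf2-positive minus Ebf2-negative, log2) of the 6 called HOX genes with 1 array left out; the symbol and colour give the array left out, the black line is the value with all 6 arrays, and filled symbols passed an adjusted p-value of 0.05. All 6 symbols of Hoxa10 are filled and none of Hoxa3. Poly-A centring would lower the black lines by 2.48, and the symbols by amounts that depend on the array left out.

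Hoxc4 and Hoxc5, genes of the neck and upper chest, had non-overlapping groups but were not called. Hoxc4 had signals of 6.25, 6.63 and 4.47 against 4.45, 4.17 and 3.75, so that Ebf2-positive replicate 3 lay only just above the highest Ebf2-negative array. Its difference was 1.66 ± 0.57 (SE; adjusted p = 0.0835), and without that replicate it was 2.32 and called (adjusted p = 0.00574). Hoxc5 had signals of 4.65, 5.45 and 5.98 against 3.46, 4.44 and 4.04, with a difference of 1.39 ± 0.41 (SE; adjusted p = 0.054), and was called without Ebf2-positive replicate 1 (1.74; adjusted p = 0.0253).

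Hoxc6, of the chest region, had signals of 5.43, 4.99 and 5.47 against 4.83, 4.90 and 4.99, with Ebf2-positive replicate 2 level with the highest Ebf2-negative array. Its 3 probe sets gave differences of 0.39, 0.73 and 0.83, and none was called. Hoxc9, which sets chest identity in the spinal cord, had 5.84, 5.25 and 5.88 against 5.15, 5.39 and 5.63, with overlapping groups and a difference of 0.27, whose 95% interval ran from -0.34 to 0.88. Hoxc13, a gene of hair and nails, had means of 3.42 and 3.09.

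In the b cluster limma called 0 of 9 measured genes in either direction, also with 0 at an unadjusted p under 0.05, and 7 differences were positive, with a median of 0.45. Hoxb4, which can expand blood stem cells when supplied in excess, had signals of 6.29, 5.10 and 5.01 against 4.56, 4.68 and 5.12. Only Ebf2-positive replicate 1 stood clear of the Ebf2-negative arrays, and the difference of 0.68 had a 95% interval from -0.25 to 1.61 (adjusted p = 0.267). Hoxb2, a hindbrain gene, had 3.75, 5.55 and 5.61 against 3.72, 4.17 and 3.47, with Ebf2-positive replicate 1 at the level of the Ebf2-negative arrays. Its difference was 1.19 (adjusted p = 0.166), and 1.80 and called without that array (adjusted p = 0.00999).

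Hoxb6, a trunk gene, had 2.68, 2.50 and 5.45 against 2.46, 3.25 and 2.50, so that 1 array, Ebf2-positive replicate 3, carried its difference of 0.80 (adjusted p = 0.518). Without that array the difference was -0.15. Hoxb5 had the most negative value of the HOX genes, -0.40, from 2.33, 2.70 and 2.35 against 2.70, 3.07 and 2.80, which overlapped (adjusted p = 0.227). Of the b cluster 5 genes had both group means under 3.5, between 1.85 and 3.45.

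In the d cluster, best known from the limb and its digits, limma called 0 of 8 measured genes (1, Hoxd13, at an unadjusted p under 0.05), with 5 positive differences and a median of 0.28. Hoxd8 had signals of 6.37, 5.56 and 4.21 against 4.46, 4.68 and 4.58. Ebf2-positive replicate 3 was below all Ebf2-negative arrays while the other two were above them. The difference was 0.81 (adjusted p = 0.325), and 1.39 and called without that replicate (adjusted p = 0.0256).

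Hoxd9 had 5.17, 6.30 and 4.77 against 4.36, 5.23 and 4.28, a difference of 0.79 (adjusted p = 0.279) with groups that overlapped through the array numbered 2 of the Ebf2-negative cells. In each group the array numbered 2 was the highest, as it was for Hoxa2, Hoxa11, Hoxa13, Hoxb1, Hoxb5 and Hoxc10. Counted group by group, that number ranked first among the Ebf2-positive arrays for 13 of the 33 HOX genes, and among the Ebf2-negative arrays for 17. With such counts some genes share it without any link between the groups, and whether the overlap was larger than that was not tested. Hoxa2, Hoxa13, Hoxb1 and Hoxb5 had both group means under 3.5, so their ranks may be at background. The part of any marker list in these ranks was not tested. Hoxd13, the digit gene at the end of the cluster, had 3.14, 4.29 and 5.33 against 2.83, 2.93 and 2.62. Its groups did not overlap, and the difference was 1.46 ± 0.53 (SE; adjusted p = 0.098), or 2.01 and called without Ebf2-positive replicate 1 (adjusted p = 0.0157). A second Hoxd13 probe set gave -0.12, with overlapping groups. Hoxd1, Hoxd3, Hoxd10, Hoxd11 and Hoxd12 had group means from 1.62 to 2.67. In both the b and the d cluster every difference was negative with poly-A centring.

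**Figure D3:**
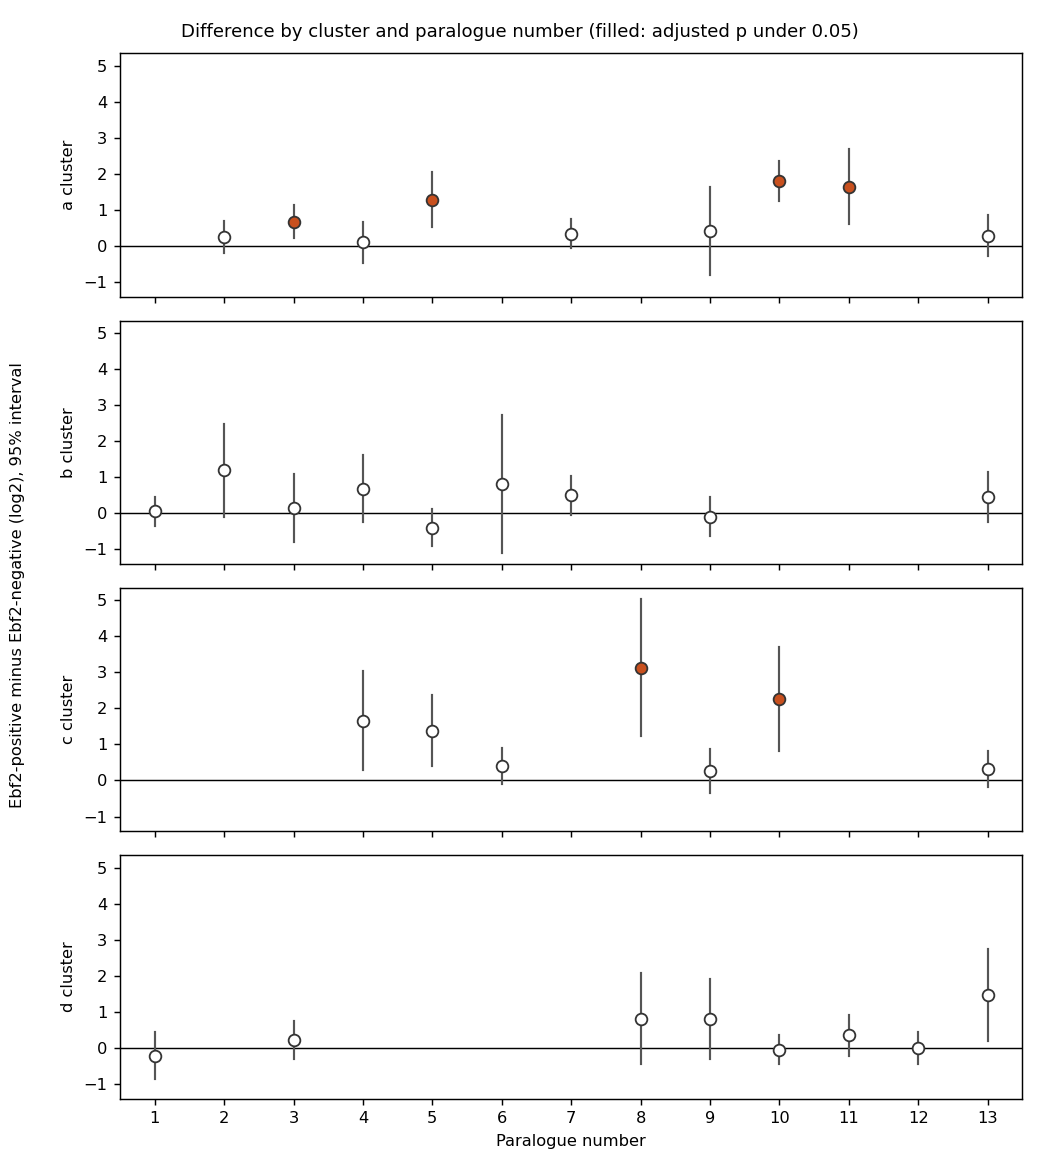
Difference in RMA signal (Ebf2-positive minus Ebf2-negative, log2) of each HOX gene against its paralogue number, in 1 panel per cluster, with 95% intervals from limma (n = 3 per group). Filled points passed the adjusted p-value of 0.05 and lie in the a and c clusters; poly-A centring would lower every point by 2.48, leaving Hoxc8 as the only one above 0.

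By paralogue number the called genes ran from 3 to 11. Of the 10 genes numbered 1 to 4, 1 was higher, with a median difference of 0.24. Of the 9 numbered 5 to 8, 2 were higher, with a median of 0.80, and of the 14 numbered 9 to 13, 3 were higher, with a median of 0.38. Paralogue 10 had 2 of its 3 measured genes called, Hoxa10 and Hoxc10, while Hoxd10 had means of 1.62 and 1.67. Differences between clusters or between classes of number were not tested.

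The 27 genes not called were not shown to be alike in the groups. For 12 of them the 95% interval reached a difference of 1 or more in size, and for the other 15 it stayed within 1 log2 unit of 0. At 14 genes both group means were under 3.5, and 10 of those are in the b and d clusters. At such signals a difference cannot be told from background, since no detection call was used.

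Among all 48 probe sets that name a single HOX gene, tested over all probe sets, 4 (8.33%) were higher, against 6.39% of all probe sets, and 0 were lower, against 8.76%. The 4 were the pair for Hoxa5 and 1 each for Hoxa10 and Hoxc8. Of the 48, 39 had a positive difference, while poly-A centring left 0 higher and 38 lower. Of the 11 genes with more than 1 probe set, Hoxa5 had both called, and several disagreed by more than 1 log2 unit. Hoxa10 gave 1.80 and 0.31, Hoxd13 gave 1.46 and -0.12, and the 3 sets of Hoxc5 gave 1.39, 0.52 and 0.14. In each of these the set that stands for the gene gave the largest value.

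**Figure D4:**
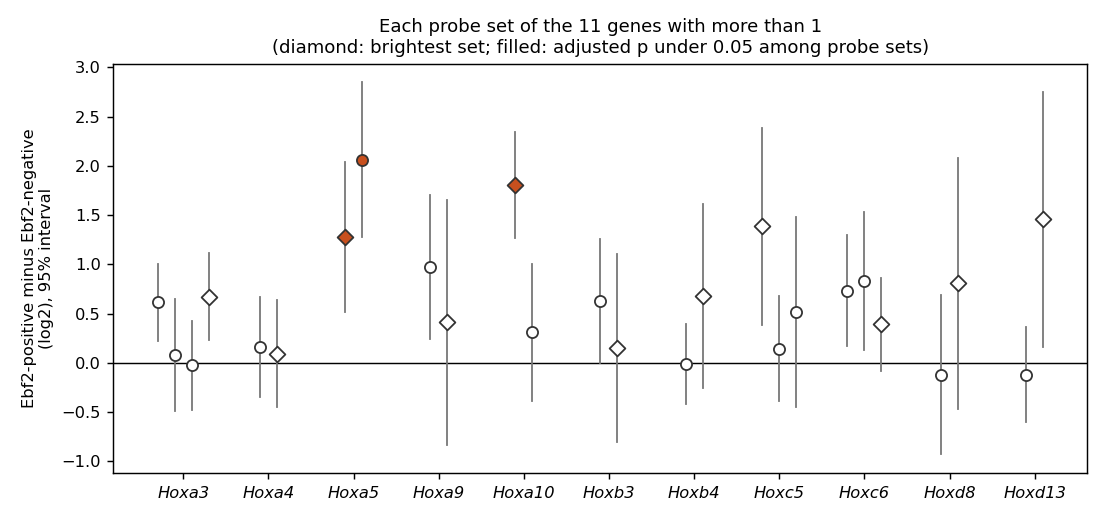
Difference in RMA signal (Ebf2-positive minus Ebf2-negative, log2, 95% interval) for every probe set of the 11 HOX genes that have more than 1; diamonds mark the probe set that stands for the gene. Filled symbols passed an adjusted p-value of 0.05 over all probe sets, namely both of Hoxa5 and 1 of Hoxa10; poly-A centring would lower each by 2.48 and leave all of them below 0.

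No probe set that is shared or antisense was called. The set shared by Hoxb8 and Hoxb7 gave 2.26, 3.05 and 2.28 against 2.06, 1.90 and 2.11, a difference of 0.51 (adjusted p = 0.269) without overlap. The pair shared by Hoxd4 and Hoxd3 gave 0.01 and 0.38. Of 5 probe sets for antisense transcripts of the clusters, 0 were called. The one for Hoxb5os, from the strand opposite Hoxb5, had the largest difference, 0.91 (adjusted p = 0.0938), from 4.94, 4.19 and 4.45 against 3.29, 4.04 and 3.52, again without overlap, whereas Hoxb5 itself lay at -0.40.

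The partners that HOX proteins bind DNA with were measured as 8 of 9 listed genes, of which 1 was higher (12.5%, against 10.8% of all genes) and 0 were lower. Meis2, a homeodomain cofactor active in the proximal limb, had signals of 5.12, 6.69 and 6.00 in Ebf2-positive cells and 2.45, 3.77 and 1.45 in Ebf2-negative ones. The groups were more than 1 log2 unit apart, and the difference was 3.38 ± 0.66 (SE; adjusted p = 0.0125). It was called without each array in turn (adjusted p at most 0.0495), whereas without probe sets that may cross-hybridise Meis2 was read by another set at -0.27 (adjusted p = 0.676). With poly-A centring the Meis2 difference was 0.90 (adjusted p = 0.244).

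Pknox2 and Meis3 had non-overlapping groups but were not called. Pknox2, of the PKNOX (PREP) cofactors, had 4.99, 7.62 and 5.91 against 4.51, 4.73 and 3.77, with replicate 2 far above the other Ebf2-positive arrays and a difference of 1.83 (adjusted p = 0.0985; called without Ebf2-positive replicate 1, at 0.0387). Meis3 had 5.31, 5.65 and 5.32 against 4.74, 4.86 and 5.01, a difference of 0.56 (adjusted p = 0.0893). Meis1, the partner of Hoxa9 in blood progenitors, had 6.88, 6.42 and 5.69 against 5.90, 5.56 and 5.05, which overlapped, with a difference of 0.82 (adjusted p = 0.169). The PBX genes had differences of -0.01 for Pbx2, 0.26 for Pbx3 and 0.02 for Pbx4, and Pknox1 had 0.14, with overlapping groups in each. Their 95% intervals still reached 1.27 for Pbx2 and 1.46 for Pknox1. With poly-A centring 0 cofactors were higher and 6 were lower.

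**Figure D5:**
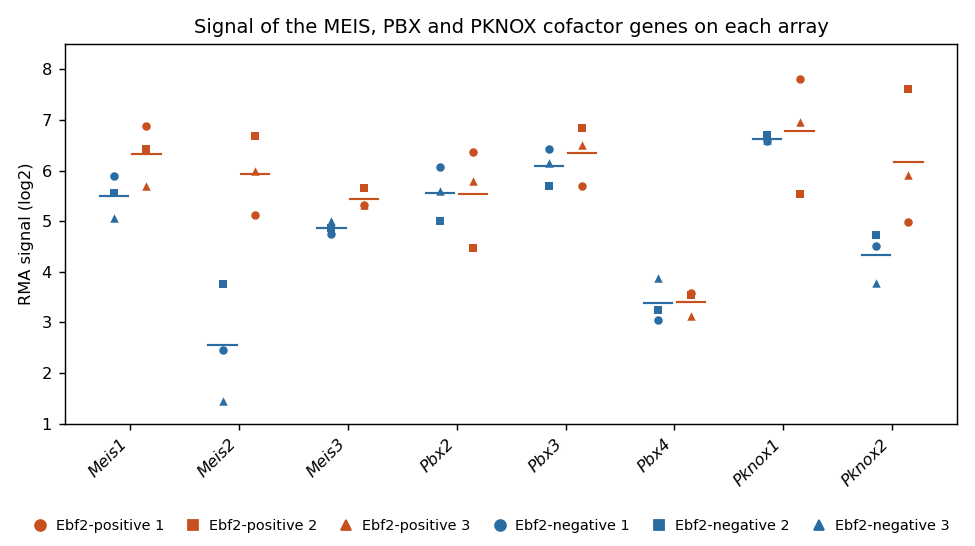
RMA signal (log2) of the 8 measured MEIS, PBX and PKNOX genes on each of the 6 arrays; points are arrays (the symbol gives the replicate number) and short lines are group means. The groups of Meis2, Meis3 and Pknox2 do not overlap; with poly-A centring the difference of Meis2 stays positive and those of Meis3 and Pknox2 turn negative.

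Of 29 measured genes for proteins that keep HOX clusters silent or active, 2 were higher (6.90%, against 10.8% of all genes) and 8 lower (27.6%, against 13.6%). Their median difference was -0.35, against 0.07 over all genes. The count lower was 5 without Ebf2-negative replicate 1 or 3. A group mean above the all-gene median was found for 23 of the 29. Of all 10006 genes with such a mean, 1804 were higher and 2349 lower, with a median difference of -0.32, near that of the list. Ezh2, the main Polycomb methyltransferase and high in dividing cells, had signals of 4.79, 4.82 and 7.09 in Ebf2-positive against 10.1, 9.44 and 9.76 in Ebf2-negative cells. The difference was -4.20 (adjusted p = 0.00522). Its partner Suz12 had a difference of -2.44 (adjusted p = 0.00348). Gmnn, which encodes geminin, a replication licensing inhibitor, differed by -3.56 (adjusted p = 0.000326), and Ash2l, of the Trithorax-type methyltransferase complexes, by -2.50 (adjusted p = 0.0293), a call that held without Ebf2-positive replicate 3 and was lost without any 1 of the other arrays (adjusted p from 0.0632 to 0.0999). The 2 higher, named after their values were seen, were Ezh1, the Ezh2 paralogue of resting cells (1.27; adjusted p = 0.00663), and Cbx7, a Polycomb reader (1.51; adjusted p = 0.00615). With poly-A centring 0 regulators were higher and 27 lower.

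Of 20 measured genes beside the clusters, limma called 0 higher and 3 lower (15.0%, near the 13.6% of all genes), with a median of -0.36. At an unadjusted p under 0.05 there were 6 with negative differences (30.0%, against 19.7% of all genes) and 0 with positive ones. The 3 were Cbx5 beside the c cluster (-1.79; adjusted p = 0.00332) and Cbx1 beside the b cluster (-1.36; adjusted p = 0.0107), both encoding heterochromatin proteins, and Atp5g3, for an ATP synthase subunit, beside the d cluster (-0.75; adjusted p = 0.0479, kept without Ebf2-positive replicate 2 and lost without any 1 of the others, with 0.1 to 0.151). None of the 5 measured flanking genes of the a cluster was called. Of the 20 flanking genes 13 had a group mean above the all-gene median, and all genes with such a mean had a median difference of -0.32. The erythroid, basophil and fibroblast marker shifts given above run between the same groups, and their part in the regulator and flanking counts was not tested.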

How the data were processed

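The intensity values deposited by the authors come from RMA, per the submitters' processing notes, a method of background correction, quantile normalization and probe summary whose version the sources used here do not name. Their range shows a linear scale, so log2 was taken. Quantile normalization hides a difference in total RNA per cell. Of 45101 probe sets 64 are controls and were left out of the tests. GEO's array annotation names 1 gene for 34945, several for 932 and none for 9160. The probe set of highest mean represented each of 18193 genes.

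The test was limma's moderated one (version 3.58.1, R 4.3.3), two-sided, with lmFit and eBayes and Benjamini-Hochberg adjustment over all genes, or over all 45037 probe sets, and was tested on simulated data. There the first criteria, on the share of large changes recovered, were not met and were replaced, after that output was seen, by criteria on bias and false calls, which were met. The members and lists were chosen with earlier results of these data known. Values per array are given for members that were called or had a group mean above the median of all genes; the measured cofactors and up to 4 called genes with the largest differences from each other list are named, not all with values per array; Hoxb2, Hoxb5, Hoxb6, Hoxd13, second probe sets, Ezh1, Cbx7, Tbx15 and the blood progenitor and endothelial markers other than Pecam1 were named after their values were seen. Alternatives were a further quantile normalization, median, 75th percentile or poly-A centring, a filter on dim genes, other probe set choices, eBayes with a trend or robust, array weights, a pseudocount of 16, a replicate block and leaving out arrays. Promoter windows came from RefSeq (GRCm38.p6), and the arrays themselves give no coordinates. Plots used Python 3.11.15 and matplotlib 3.10.9.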

Additional observations from a re-analysis of the deposited data

How the results depend on the processing

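With 3 arrays per group the precision is limited. The count of 6 HOX genes higher became 2 with the filter on dim genes, which kept 5 HOX genes, 0 with poly-A centring, 3 without both arrays numbered 2, and ran from 1 to 6 when single arrays were left out. The count lower became 24 with poly-A centring. The genes called also changed. With a pseudocount of 16 they were Hoxa3, Hoxa5, Hoxa7 and Hoxa10, so that Hoxa11, Hoxc8 and Hoxc10 lost their calls. With array weights they were Hoxa3, Hoxa10, Hoxa11, Hoxc5, Hoxc8 and Hoxd13. The cofactor count higher, 1, became 0 without cross-hybridising probe sets, 2 with a pseudocount of 16 and 0 with poly-A centring, and ran from 1 to 2 when single arrays were left out; the count lower became 6 with poly-A centring. The 4 probe sets higher became 2 with median centring, 8 with the 75th percentile, 7 with the filter on dim genes and 0 with poly-A centring, and ran from 2 to 6 when single arrays were left out; the count lower became 38 with poly-A centring. Beyond the poly-A centring and the other constructions named, the cause was not tested. Over the single HOX genes and the alternatives other than poly-A centring, 494 values kept direction and call, 41 lost a call, 13 gained 1 and 18 changed sign, all 18 in genes not called. The sign changes were Hoxa4 (-0.011) and Hoxb1 (-0.055) with a further quantile normalization, Hoxb1 (-0.0018) with median centring, and Hoxb9 (0.025), Hoxd10 (0.066) and Hoxd12 (0.11) with the 75th percentile. Hoxd8 was at -0.12 without cross-hybridising sets. That setting also drops sets that read several transcripts of the same gene, such as the one used for Hoxa10. The call of Hoxa10 ended there (0.31, limma adjusted p = 0.507) for that reason and not because its set is marked as cross-hybridising. When single arrays were left out, values ran from -0.048 to 0.241 for Hoxa4, from -0.15 to 0.468 for Hoxb3, from -0.151 to 1.33 for Hoxb6, from -0.204 to 0.073 for Hoxb9 and from -0.0901 to 0.0681 for Hoxd12. Without both arrays numbered 2 they were Hoxb3 (-0.37), Hoxd10 (0.0065) and Hoxd12 (0.042). The groups share replicate numbers, but same-numbered arrays deviated together only weakly (r of 0.058, 0.106 and 0.029 across genes, which are not independent). Of the 6 arrays 5 correlated best with their own number, a hint of pairing from the data. A negative r was found for 5 of the 6 other pairs. Deviations from a group mean cancel within the group, so positive same-number values make negative ones among the other pairs. The negative pairs are therefore no separate evidence. Only 1 same-number r was over 0.1, so the numbers were not taken as pairs. With the replicate number as a block 6 HOX genes were higher, 4 of them shared with the fit without it, 5 probe sets and 1 cofactor were higher, and 0 were lower. Leaving out both arrays numbered 2 and poly-A centring were chosen after seeing the data.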

Other observations

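Transcription factors that set position in the limb and body wall outside the HOX clusters were listed as well. Of 25 measured, 5 were higher in Ebf2-positive cells (20.0%, against 10.8% of all genes) and 0 lower (against 13.6%), with a median difference of 0.18. Meox2, a homeobox gene of the somites and limb muscle, had signals of 9.80, 9.55 and 9.93 on the Ebf2-positive against 3.15, 5.64 and 2.15 on the Ebf2-negative arrays. The difference was 6.12 ± 0.84 (SE, n = 3 per group; limma adjusted p = 0.00364). Ebf2-negative replicate 2 was the highest of its group and still far below the Ebf2-positive arrays. Tbx18, a T-box gene of the somites and of mural cells, had 6.65, 6.53 and 8.44 against 4.19, 4.64 and 4.16, a difference of 2.88 (adjusted p = 0.0101). Meox1 differed by 2.74 (adjusted p = 0.00318) and Msx1, a homeobox gene of limb bud mesenchyme, by 2.50 (adjusted p = 0.00337). Tbx15, a T-box gene of limb and skin mesenchyme and the fifth called, differed by 1.94 (adjusted p = 0.0103). These 5 were called without each array in turn. With poly-A centring 1 factor, Meox2, stayed higher (3.64; adjusted p = 7.74e-06) and 18 were lower.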
